A study of Mus musculus with 11 samples.

Results

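Polycomb group genes encode the subunits of the 2 chromatin complexes PRC1 and PRC2. The 32 genes described here are a named list of such subunits and of genes that work with them. They are 6 core and 6 accessory genes of PRC2, 2 catalytic RING genes, 6 PCGF genes, 7 CBX and PHC genes and 4 variant genes of PRC1, and 1 demethylase gene. All 32 were present among the 48440 genes of the count table of cultured neural progenitor cells (NPCs) and among the 32285 genes of both scRNA-seq matrices. The study deleted Syncrip, an RNA-binding protein gene, from mouse NPCs by placing loxP sites around exons 2 to 4 and crossing to Emx1-Cre, which acts in the dorsal telencephalon. RNA-seq covered NPCs taken from the lateral ventricles at E14.5 and grown with EGF and bFGF, with 3 cultures labelled WT and 3 labelled cKO. The study uses cKO as its short name for the Emx1-Cre line, though its methods also apply the word to a Nestin-Cre line, and the labels of the cultures name no Cre. The sources do not say from how many animals a culture came. scRNA-seq covered the dorsal telencephalon of 1 WT and 1 cKO littermate at E14.5.

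PRC2 places methyl groups on a lysine of histone H3 through Ezh2 or its relative Ezh1, and needs Eed and Suz12 to do so. PRC1 places ubiquitin on histone H2A through Rnf2 or Ring1, each paired with 1 PCGF protein, and exists in canonical forms with CBX and PHC subunits and in variant forms with Rybp or Yaf2. In the developing cortex the complexes are known for silencing developmental regulators, and for their part in when progenitors stop making one kind of cell and start the next.

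Depth was even between the groups. The cultures held 16962903 to 22708400 counts, of which mitochondrial genes took 2.91% to 4.8%. After filtering, 8214 cells of the WT embryo (median 11705 UMIs) and 9560 of the cKO embryo (median 11012.5 UMIs) remained, and 22 cell barcodes occurred in both. These are more barcodes than the recovery that the study's methods aimed at. Syncrip itself stood at 78.0, 79.8 and 79.9 CPM (a gene's counts scaled to the same library total) in the WT cultures and at 90.3, 88.7 and 81.5 CPM in the cKO cultures, with no drop. Exons 2 to 4 make up 4.1% of the exonic length of its longest coding transcript, and scRNA-seq reads the 3′ end, so neither measure checks the deletion. The study reports its own check of the knockout at the RNA and protein levels. It describes RNA-seq tracks of E14.5 cKO neurospheres as showing the deletion of exons 2 to 4. The deletion was not checked again here, and WT and cKO are the genotypes as labelled throughout. Y-linked genes had 5903 to 9232 counts in WT cultures 1 and 2 and in cKO culture 1, and at most 1 count in the other 3, so sex was not balanced. The 2 embryos also differed in sex, with 2 Xist UMIs in WT and 105339 in cKO, and sex and genotype cannot be told apart in the scRNA-seq.

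In the cultured NPCs, 8 Polycomb genes rose in cKO and none fell. They were Ezh2, Eed, Mtf2, Phf19 and Epop of PRC2, and Ring1, Pcgf1 and Pcgf2 of PRC1. The largest differences were those of Phf19, at 0.91 on the log2 scale, and of Ezh2, at 0.61. The test was the quasi-likelihood test of edgeR over 14432 genes, with Benjamini-Hochberg adjusted p below 0.05. Of all genes tested 39.5% passed, 19.7% higher and 19.8% lower in cKO. Of the 31 Polycomb genes tested, 25.8% passed, fewer than among all genes in total but all in one direction. Their median log2 fold change was 0.11, beside 0.00 over all genes tested, and 22 of them lay above 0 and 9 below. WT and cKO values did not overlap for 12 of the 31 (38.7%), beside 50.4% of all genes. No Polycomb gene fell in any of the 14 other fits, while the number that rose ran from 4 to 11. The share of all genes that passed also varied between these fits. It ran from 26.3% without a low-count filter to 44.4% with the replicate number as a block. Since a culture is a mixture of cells, fewer cells of a kind and less RNA per cell cannot be told apart.

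**Figure D1:**
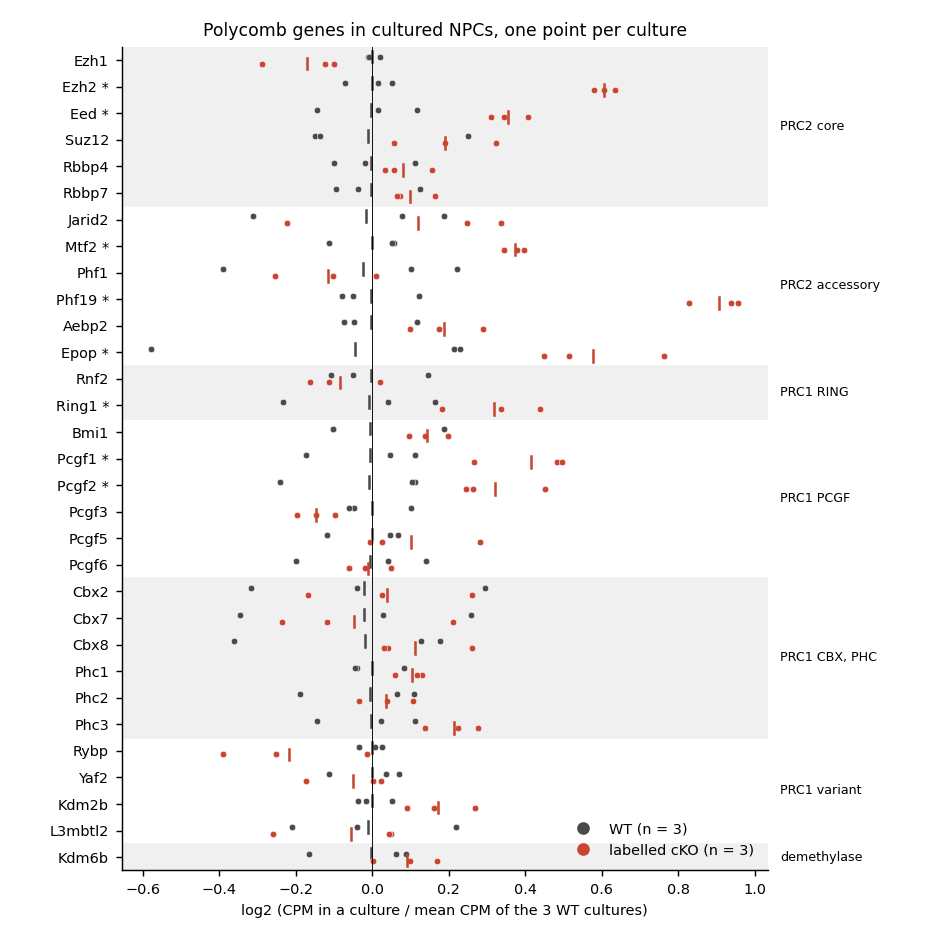
Polycomb genes in each NPC culture. The horizontal axis is the log2 ratio of a culture's CPM to the mean of the 3 WT cultures, 1 point per culture and a bar at each group's mean; an asterisk marks the 8 genes that passed the test, and Cbx6, which was not tested, is left out. The points of Phf19 lie farthest to the right in all 3 cKO cultures, and no gene passed to the left.

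Among the PRC2 core genes, Ezh2 moved farthest. In mm10, Ezh2 lies at chr6:47530139-47595341 and Eed at chr7:89954654-89980983, both on the minus strand. Ezh2, the methyltransferase that prevails in dividing cells, was measured at 67.5, 61.9 and 65.7 CPM in the WT cultures and at 97.3, 101.0 and 99.0 CPM in the cKO cultures. Every cKO culture lay above every WT culture, with a gap far wider than the spread of either group. The means were 65.0 ± 2.8 and 99.1 ± 1.9 CPM (SD, n = 3 each), the log2 fold change was 0.61 (SE 0.07), and the adjusted p in edgeR was 2.8e-05. Eed, the subunit that binds the methyl mark, stood at 36.1, 30.1 and 33.6 CPM in WT and at 44.2, 42.3 and 41.3 CPM in cKO, again without overlap. It differed by 0.35 (SE 0.10, edgeR adjusted p = 0.010). Ezh1, the methyltransferase known from resting cells, was at 36.3, 35.4 and 35.5 CPM in WT and at 33.4, 32.8 and 29.3 CPM in cKO. Those values did not overlap either, but the difference of -0.17 (SE 0.09) did not pass the test (edgeR adjusted p = 0.16). Scaled by length, Ezh2 reached 9.28 to 10.1 CPM per kilobase of exon in WT and 14.6 to 15.1 in cKO, while Ezh1 reached 4.76 to 4.87 and 3.93 to 4.48. Suz12, Rbbp4 and Rbbp7 did not pass, with log2 fold changes of 0.19, 0.08 and 0.10. Suz12 shares 30.5% of its span with an antisense gene and Rbbp4 shares 38.3%, so their counts may hold reads of these neighbours, since it is not stated whether counting used the strand.

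A DNA element known from cell cycle promoters was looked for in the 26 Polycomb genes with a RefSeq promoter window (GRCm38.p6, 250 bases before to 50 bases after the start). The element and the search were chosen after the values were seen. The letters searched were TTTCCCGC, TTTGGCGC, TTTCGCGC and TTTGCCGC on both strands, 8-base forms of the E2F element. Each gene was counted once, whatever the number of matches. They were found in 3 of the 26 genes, Ezh2, Suz12 and Phf19, all of PRC2, and in 704 of 27025 genes with a window in all (2.60%). The 30 bases around each are printed 5′ to 3′ on the gene's strand with the matching letters in capitals.
Ezh2, chr6:47595009-47595038, minus strand: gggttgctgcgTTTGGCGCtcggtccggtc
Suz12, chr11:79992876-79992905, plus strand: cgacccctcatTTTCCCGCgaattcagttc
Phf19, chr2:34914166-34914195, minus strand: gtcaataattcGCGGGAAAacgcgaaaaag
The match in Ezh2 begins 3 bases after the RefSeq start of its window. Those in Suz12 and Phf19 begin 219 and 208 bases before theirs, and that of Phf19 is in reverse complement. For Ezh2 and Phf19 the RefSeq start lies inside the mm10 span given for the gene. A match of letters does not show that a factor binds there, and no match in the others says only that these letters are not in the window.

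The PRC2 accessory genes held the largest rise. Phf19 lies at chr2:34893757-34914026 on the minus strand and Mtf2 at chr5:108065674-108109004 on the plus strand. Phf19, a Polycomb-like protein that brings PRC2 to chromatin, was low, at 4.05, 4.57 and 3.97 CPM in WT and at 7.45, 8.04 and 8.15 CPM in cKO. The groups did not overlap, and the difference was 0.91 (SE 0.16, edgeR adjusted p = 0.00068). Mtf2, its close relative, was at 49.4, 43.8 and 49.2 CPM in WT and at 60.2, 62.5 and 61.7 CPM in cKO, a difference of 0.37 (SE 0.09, edgeR adjusted p = 0.0044). Phf1, the other Polycomb-like gene, did not pass, at -0.11 (SE 0.18). Epop, a PRC2 cofactor on chr11:97627389-97629702 that the table lists under an older name, was at 6.75, 11.7 and 11.8 CPM in WT and at 13.8, 17.1 and 14.4 CPM in cKO. WT culture 1 lay well below the other WT cultures, and the difference of 0.58 (SE 0.19, edgeR adjusted p = 0.024) was 0.49 with an adjusted p of 0.087 when cKO culture 2 was left out. Jarid2 and Aebp2 differed by 0.14 and 0.19 and did not pass.

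In PRC1 the changes were smaller. Ring1 lies at chr17:34020792-34024680, Pcgf2 at chr11:97688823-97700497 and Pcgf1 at chr6:83077869-83080855. Ring1, a catalytic ubiquitin ligase, was at 19.6, 25.9 and 23.7 CPM in WT and at 31.3, 26.2 and 29.1 CPM in cKO. The lowest cKO culture lay just above the highest WT culture, and the difference was 0.33 (SE 0.12, edgeR adjusted p = 0.039). Rnf2, the other ligase and the higher of the pair per length, at 18.3 to 21.9 CPM per kilobase of exon in WT against 6.05 to 7.97 for Ring1, was at 90.3, 78.7 and 75.7 CPM in WT and at 82.7, 75.4 and 72.8 CPM in cKO. The Rnf2 groups overlapped, and the difference was -0.08 (SE 0.09, edgeR adjusted p = 0.48). Pcgf2, a PCGF subunit of canonical PRC1, was at 24.4, 31.2 and 31.0 CPM in WT and at 34.7, 39.5 and 34.2 CPM in cKO, a difference of 0.32 (SE 0.11, edgeR adjusted p = 0.033). Pcgf1, the PCGF subunit of the variant complex with Kdm2b, was at 6.71, 7.02 and 5.76 CPM in WT and at 9.07, 7.81 and 9.16 CPM in cKO, a difference of 0.42 (SE 0.16, edgeR adjusted p = 0.045). These 3 PRC1 genes had the highest adjusted p of the 8. Ring1 lost its call in 5 of the other 14 fits, Pcgf1 in 7 and Pcgf2 in 6, with DESeq2 among those that lost Ring1 (adjusted p = 0.052) and Pcgf1 (adjusted p = 0.083). Leaving out WT culture 1 lowered Ring1 to 0.21 (edgeR adjusted p = 0.14) and Pcgf2 to 0.21 (edgeR adjusted p = 0.12).

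No CBX, PHC or variant gene of PRC1 passed. Phc3 came nearest, at 0.21 (edgeR adjusted p = 0.054), with cKO at 184.2 to 203 CPM above WT at 151 to 181 CPM. Kdm2b, which brings variant PRC1 to CpG islands, differed by 0.17 (edgeR adjusted p = 0.086). Rybp, a variant subunit, had the lowest log2 fold change of all, -0.21 (edgeR adjusted p = 0.15). Kdm6b, which removes the methyl mark that PRC2 places, was at 142, 169.5 and 167 CPM in WT and at 159.6, 179 and 171 CPM in cKO, with overlapping groups and a difference of 0.09 (SE 0.08, edgeR adjusted p = 0.42). The 20 genes that neither passed nor are catalytic lay between -0.21 and 0.21. Cbx6 could not be tested, since it had counts only in WT culture 2. Its span is shared to 95.8% with Npcd on the same strand.

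Other genes of the pathway, from lists chosen with earlier results of these data known, moved in both directions. Of 29 tested partners of the complexes, 10 rose and 4 fell, with a median of 0.09. Over all genes tested, 19.7% rose and 19.8% fell. Scml2, a relative of Phc proteins, rose from 4.54 ± 0.67 to 8.03 ± 0.47 CPM (SD, n = 3 each), by 0.82 on the log2 scale (edgeR adjusted p = 0.0020), and Kdm6a, an X-linked demethylase, rose by 0.67 (edgeR adjusted p = 0.0093). The lower Kdm6a values of each group were those of the cultures with Y-linked counts. Auts2, a partner of variant PRC1, fell by 0.62 (edgeR adjusted p = 0.00069) and its relative Fbrsl1 fell by 0.54 (edgeR adjusted p = 0.00049). Of 14 tested trithorax genes, whose products oppose Polycomb, none rose and 1, Men1, fell by 0.41 (edgeR adjusted p = 0.0026). None of 39 Hox genes had enough counts to be tested, with a sum of at most 0.245 CPM over the list in any culture. Of 20 other genes known to be silenced by Polycomb, 3 could be tested. Cdkn2b, a cell cycle inhibitor, was at 15.3, 15.7 and 16.5 CPM in WT and at 6.23, 5.48 and 5.79 CPM in cKO, a fall by 1.44 (SE 0.13, edgeR adjusted p = 2.5e-06). Its neighbour Cdkn2a was at 3.88 ± 0.70 and 3.61 ± 0.49 CPM (SD, n = 3 each), a difference of -0.09 (edgeR adjusted p = 0.76), and Nkx2-2 rose by 0.33 (edgeR adjusted p = 0.037).

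Genes of the cell cycle and of other cell types moved with the cultures as well. Of 14 cycling genes 12 rose in cKO and none fell, and their sum was 316 to 384 CPM in WT and 501.5 to 673 CPM in cKO. Of 17 tested neuron genes 12 fell, with sums of 3270 to 3525 CPM in WT and 2852 to 2962 CPM in cKO. Of 11 tested astrocyte genes 10 fell, from sums of 9128 to 9900 CPM to sums of 5618 to 6464 CPM, and of 11 tested genes of the oligodendrocyte lineage 6 fell and 2 rose. Microglia and red blood cell genes summed to at most 2.39 and 0.63 CPM in any culture. The part of these shifts in the Polycomb values was not tested.

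In the cortex, cells were clustered without the Polycomb genes, and clusters were called by the marker list they resembled. Those like apical progenitors (APs) held 961 WT and 1319 cKO cells with all 14 or 13 of 14 AP markers raised. Those like intermediate progenitors (IPs) held 723 and 778 cells, with 8 to 10 of 10 markers raised in a cluster. Those like excitatory neurons held 3431 and 3781 cells, with only 4 to 8 of 16 markers raised in a cluster. Clusters like cells of the ganglionic eminence (GE), which lies outside the territory of Emx1-Cre, held 110 and 130 cycling cells, called GE progenitors here, and 1083 and 1511 other cells, called GE neurons. GE progenitors had 12 of 17 GE markers raised, and the clusters of GE neurons had 7 to 12. Cycling genes summed to 456 (WT) and 442 CPM (cKO) in GE neurons, against 9664 and 9332 CPM in GE progenitors. The sums in excitatory neurons were 174 and 191 CPM, so GE neurons are not taken to be free of cycling cells. A cluster of 891 WT and 841 cKO cells, with 4 of 10 IP markers raised, met the limits for no name and is called the Neurod1 cluster after its leading gene. Together with it, cells of clusters without a name numbered 1734 in WT and 1792 in cKO. The other unnamed clusters are not described here. UMIs of a gene were summed over the cells of a class and given as CPM of that class. With 1 embryo per genotype no test was made. All intervals in parentheses are exact 95% intervals for counting error only, and a gene counts as higher or lower between classes where it was past 1.5-fold in both embryos.

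From APs to excitatory neurons, Polycomb genes split. Of the 30 with at least 100 UMIs in both embryos, 7 were higher in neurons (23.3%, beside 20.9% of 12779 genes counted) and 6 were lower (20%, beside 27.5%), shares close to those of all genes. The higher ones were Ezh1, Jarid2, Phf1, Bmi1, Pcgf3, Kdm2b and Kdm6b. The lower ones were Eed, Suz12, Rbbp7, Aebp2, Epop and Pcgf5. The median log2 ratio of the 30 was -0.11 in WT and -0.09 in cKO, beside -0.15 over all genes in each. The embryos gave the same sign for 28 of the 30, and their log2 ratios differed by a median of 0.08.

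**Figure D2:**
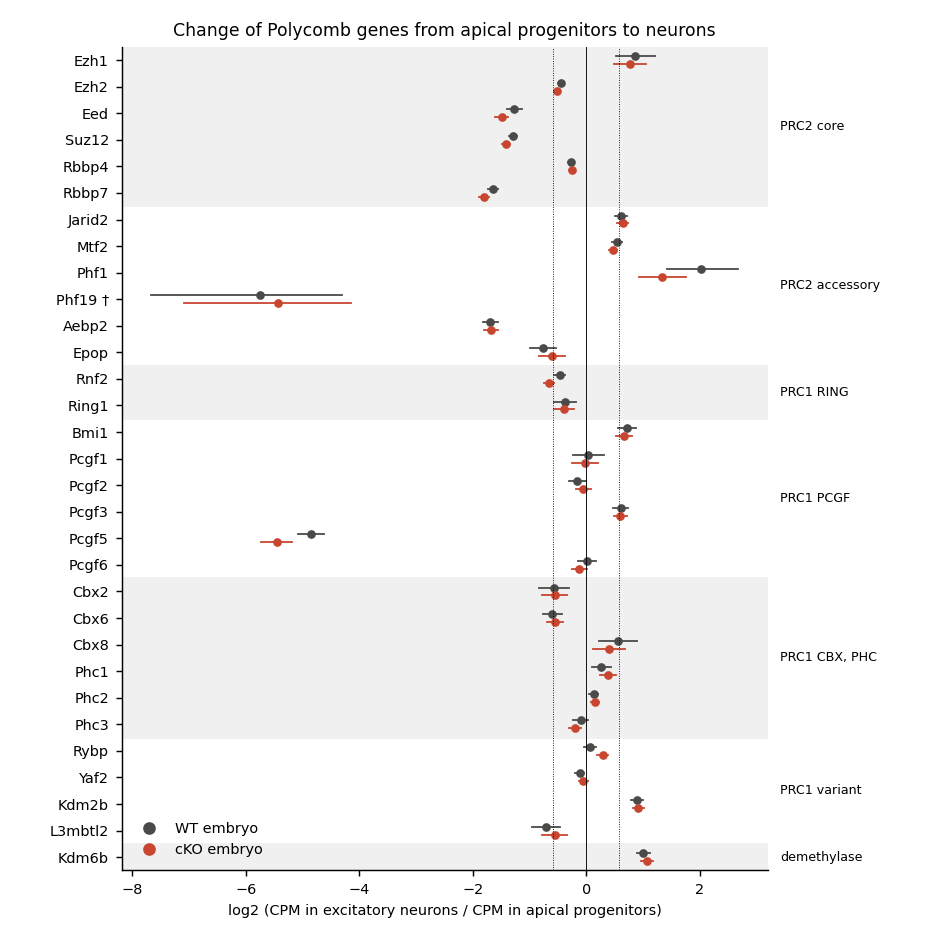
Log2 ratio of CPM in excitatory neurons to CPM in apical progenitors for each Polycomb gene in the WT and the cKO embryo, with exact 95% intervals for counting error; dotted lines mark 1.5-fold, a dagger marks a gene with under 100 UMIs in an embryo, and Cbx7, with 78 UMIs in WT and 84 in cKO, is left out. Pcgf5 and Phf19 lie far to the left of all others in both embryos.

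Pcgf5, the PCGF subunit of a variant PRC1, differed most among the genes counted. It had 108 CPM (102 to 113) in WT APs and 3.74 CPM (3.22 to 4.31) in WT excitatory neurons, and 98.6 CPM (94.2 to 103) and 2.25 CPM (1.86 to 2.69) in cKO. The log2 ratios were -4.85 (-5.08 to -4.63) and -5.46 (-5.74 to -5.19). Its neuron level was 3.47% of its AP level in WT and 2.28% in cKO, within the range of the 14 AP markers (0.746% to 12.8% in WT, median 2.73%, and 0.742% to 15% in cKO, median 2.72%). Whether what remained in neurons was expression was not tested, and the ratio is not read as an exact fold. IPs were already much lower than APs, with 14.9 CPM (WT) and 11.9 CPM (cKO), and the Neurod1 cluster had 5.70 and 4.69 CPM. None of the other PCGF genes came near this. Pcgf1, Pcgf2 and Pcgf6 had log2 ratios between -0.16 and 0.04 in both embryos, while Bmi1 and Pcgf3 were higher in neurons.

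Phf19 also had few UMIs left in neurons. It had 55 UMIs in WT APs and 4 in WT excitatory neurons, and 79 and 5 in cKO, at log2 ratios of -5.74 (-7.67 to -4.31) and -5.43 (-7.09 to -4.15). These were below the limit of 100 UMIs, so Phf19 was not counted among the lower genes, and it is described here after its values were seen. With the limit set on the mean of the 2 classes, so that the size of neither class decides, Phf19 was counted as well, giving 7 higher and 7 lower genes. Of all 12953 genes counted with that limit, 19.7% were higher and 29.4% were lower.

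Of the 6 PRC2 core genes, 3 were lower in neurons, Suz12, Eed and Rbbp7. Suz12, which holds the complex together, had 167 CPM (160.1 to 174) in WT APs and 68.3 CPM (66.0 to 70.6) in WT neurons, and 173 and 65.1 CPM in cKO, at log2 ratios of -1.29 and -1.41. Eed had 57.7 CPM in WT APs and 24.0 CPM in WT neurons, and 66.2 and 23.6 CPM in cKO, at log2 ratios of -1.27 and -1.49. Rbbp7, an X-linked histone chaperone, had 138 and 44.2 CPM in WT and 138 and 39.5 CPM in cKO, at log2 ratios of -1.64 and -1.81. Among the accessory genes, Aebp2 was lower at -1.69 and -1.68, and Epop at -0.76 and -0.60, just past 1.5-fold in cKO.

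The methyltransferases themselves went opposite ways. Ezh2 had 410.3 CPM (399 to 422) in WT APs and 300.4 CPM (296 to 305) in WT neurons, and 419 and 292 CPM in cKO, at log2 ratios of -0.45 (-0.50 to -0.41) and -0.52 (-0.56 to -0.48). Neither embryo reached 1.5-fold. Ezh1 had 6.35 CPM (5.05 to 7.89) in WT APs and 11.5 CPM (10.6 to 12.5) in WT neurons, and 6.83 and 11.7 CPM in cKO, at log2 ratios of 0.86 (0.52 to 1.21) and 0.77 (0.50 to 1.06).

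The higher genes came from several parts of the complexes. Kdm2b had 66.0 CPM in WT APs and 123 CPM in WT neurons, and 63.9 and 121 CPM in cKO, at log2 ratios of 0.90 and 0.92. Kdm6b had 49.8 and 100.3 CPM in WT and 51.0 and 107 CPM in cKO, at log2 ratios of 1.01 and 1.07. Phf1 was low, at 1.86 and 7.53 CPM in WT and 2.99 and 7.51 CPM in cKO, and its log2 ratios of 2.02 and 1.33 were the least alike between the embryos. It had 24 and 57 UMIs in APs and reached the limit through the larger neuron class, where it was high. Jarid2, a PRC2 cofactor that helps place the complex, was higher at 0.61 and 0.64. Bmi1, a PCGF subunit of canonical PRC1 needed for self-renewal of neural stem cells, was higher at 0.72 and 0.66, and Pcgf3, of a variant PRC1, at 0.61 and 0.60. The ligases were both lower, Rnf2 at -0.46 and -0.65 and Ring1 at -0.38 and -0.39, past 1.5-fold only for Rnf2 in cKO.

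**Figure D3:**
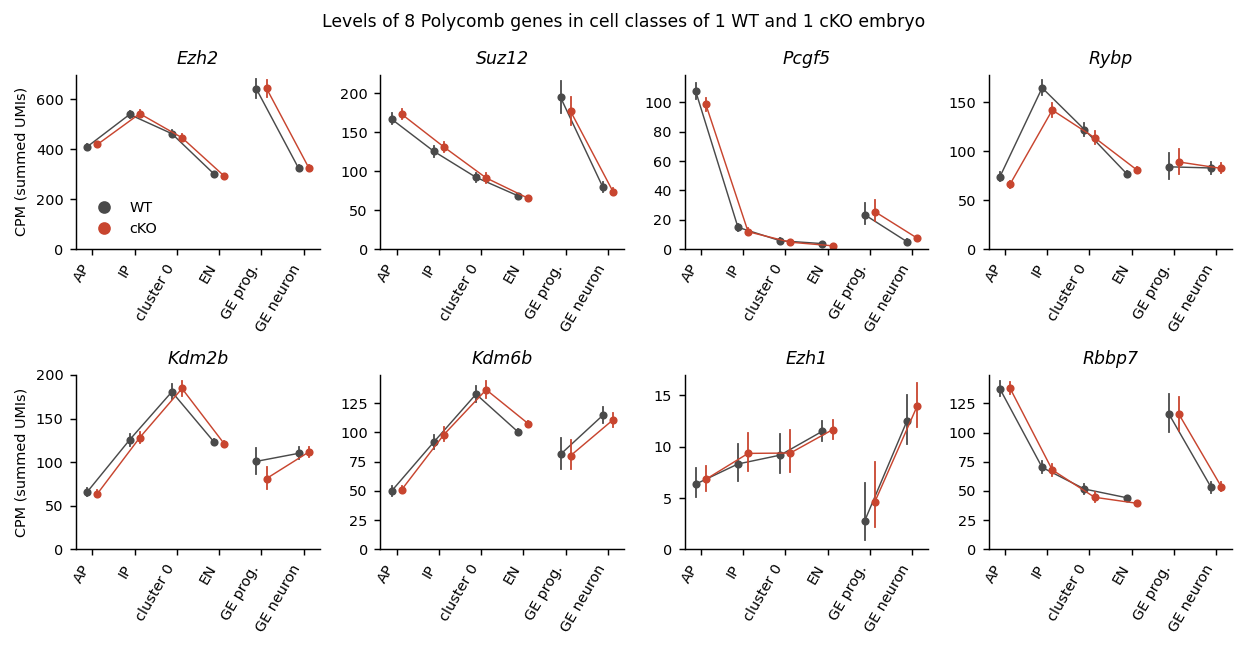
CPM of 8 Polycomb genes in apical progenitors (AP), intermediate progenitors (IP), the Neurod1 cluster (cluster 0), excitatory neurons (EN), GE progenitors and GE neurons, for the WT and the cKO embryo, with exact 95% intervals for counting error. Pcgf5 is highest in apical progenitors, and Ezh2 is higher in intermediate than in apical progenitors.

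The IP stage did not lie midway between APs and neurons for all genes. Of 29 counted, 7 were higher in IPs than in APs (24.1%, beside 10.8% of 11061 genes) and 5 were lower (17.2%, beside 17.0%). The higher ones were Jarid2, Mtf2, Pcgf3, Phc2, Rybp, Kdm2b and Kdm6b, and the lower ones Rbbp7, Aebp2, Epop, Pcgf5 and Cbx6. Ezh2 had 539 CPM in WT IPs and 542.5 CPM in cKO IPs, above its APs at log2 ratios of 0.39 (0.34 to 0.45) and 0.37 (0.32 to 0.42). Rybp had 165 CPM in WT IPs and 142 CPM in cKO IPs, at log2 ratios to APs of 1.16 and 1.10, and 77.1 and 81.0 CPM in neurons. Phc2 had 191 and 229 CPM in IPs, at 0.75 and 0.98. Among these cortical cells, Kdm2b was highest in the Neurod1 cluster, with 181 CPM (WT) and 184 CPM (cKO), as were Kdm6b at 133 and 137 CPM and Jarid2 at 233 and 201 CPM. Rybp, Phc2 and the levels in the Neurod1 cluster were chosen after their values were seen.

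In GE cells, where Emx1-Cre is not known to act, 4 of the 6 PRC2 core genes were lower in neurons. Of 25 counted, 1 was higher (4.0%, beside 17.8% of 9385 genes) and 4 were lower (16.0%, beside 11.6%). Ezh2 had 641 CPM in WT GE progenitors and 323.5 CPM in WT GE neurons, and 644 and 326 CPM in cKO, at log2 ratios of -0.99 and -0.98. Suz12 was lower at -1.29 and -1.26, Rbbp7 at -1.13 and -1.11, and Rbbp4, the close relative of Rbbp7, at -0.67 and -0.78. Ezh1 was the higher one, with 5 UMIs in WT progenitors and 112 in WT neurons, and 10 and 168 in cKO. It reached the limit only through the neurons, and with the limit set on the mean of the 2 classes it was not counted, leaving no higher gene and 5 lower ones, Pcgf5 in addition. Of all 9349 genes counted with that limit, 15.9% were higher and 13.6% were lower. Kdm6b was within 1.5-fold, at 0.50 and 0.47. Pcgf5 had too few UMIs for the limit used elsewhere, at -2.22 and -1.77. Suz12 and Rbbp7 were past 1.5-fold lower in both cortex and GE. GE progenitors were named by at least 10 raised cycling genes, whereas cortical APs included cells called G1, so the 2 comparisons differ in this.

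Several of these genes also differed between cell cycle phases of APs. APs were called G1, S or G2/M from cell cycle genes other than the Polycomb genes, with 160, 307 and 494 cells in WT and 162, 557 and 600 in cKO. Ezh2 had 259.8 CPM (238 to 283) in G1, 441 CPM (420.3 to 462) in S and 436 CPM (420.3 to 452) in G2/M of WT, and 339.6 CPM (314 to 367), 423 CPM (408 to 438) and 432 CPM (419 to 446) in cKO. Eed had 29.8 CPM in G1 and 64.8 CPM in S of WT, and 46.4 and 72.8 CPM in cKO. Suz12, Rbbp7 and Pcgf5 were also lowest in G1 in both embryos, Pcgf5 with 70.3 CPM (WT) and 60.4 CPM (cKO). Phf19 had 1 UMI in G1, 20 in S and 34 in G2/M of WT, and 2, 37 and 40 in cKO. Rybp and Phc2, chosen after their values were seen, were highest in G1, Rybp with 111 CPM (WT) and 119.8 CPM (cKO) against 52.6 and 50.4 CPM in S.

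**Figure D4:**
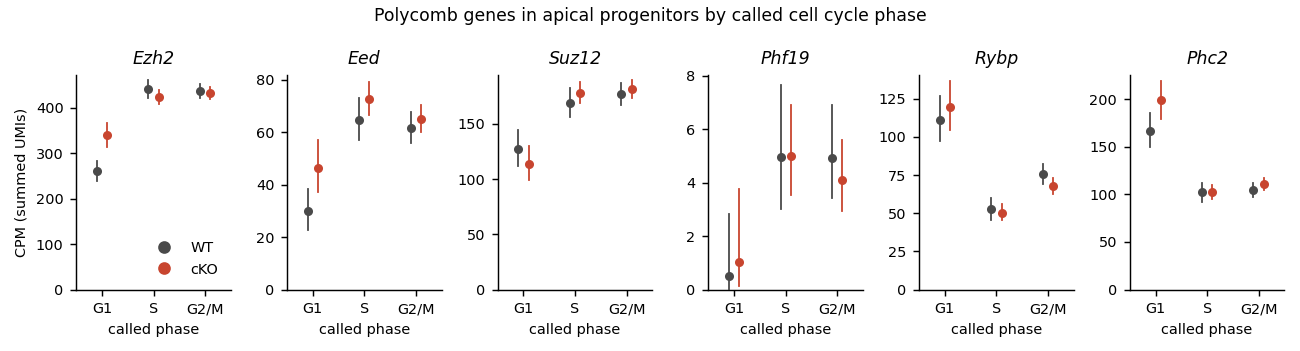
CPM of Ezh2, Eed, Suz12, Phf19, Rybp and Phc2 in apical progenitors called G1, S and G2/M, for the WT and the cKO embryo, with exact 95% intervals for counting error. The 4 PRC2 genes are lowest in G1, and Rybp and Phc2 are highest there.

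With APs called G1 alone set against neurons, 8 genes were past 1.5-fold in place of 13, 7 of the 13 and Cbx8. Phf1, which is among the 7, had 1 UMI in G1 APs of WT and 7 in cKO, and Cbx8 had 5 and 12. Both reached the limit through the neurons, where they were high. The share of all genes past 1.5-fold in this setting is not given here, so the fall from 13 to 8 was not read as particular to Polycomb genes. Ezh2 then had log2 ratios of 0.21 in WT and -0.22 in cKO, so it had no common direction, nor had Ezh1 or Epop. Ezh1, Eed, Jarid2, Epop, Pcgf3 and Kdm6b were no longer past 1.5-fold in both embryos. Pcgf5 was at -4.23 and -4.75, Suz12, less far apart than before, at -0.90 and -0.81, and Kdm2b at 0.97 and 0.91.

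Within a class, 1 gene was past 1.5-fold between the embryos of the 2 genotypes. For this comparison a gene was counted with at least 100 UMIs in the class over both embryos together. In APs none of 30 counted was past 1.5-fold, beside 2.17% of 11708 genes higher and 1.06% lower in cKO, with log2 ratios from -0.35 to 0.22 and a median of 0.02. Ezh2, the gene with the smallest adjusted p in the cultures, had 410.3 CPM in WT APs and 419 CPM in cKO APs, at a log2 ratio of 0.03 (-0.02 to 0.08), and 0.01 in IPs, -0.04 in neurons and -0.01 in GE cells. Within APs called G1, which were 160 WT and 162 cKO cells, Ezh2 was higher in cKO, at 259.8 CPM (238 to 283) against 339.6 CPM (314 to 367), and Eed was at 29.8 CPM (22.7 to 38.5) against 46.4 CPM (37.2 to 57.1). In S and G2/M the intervals of the embryos overlapped for both genes. Other PRC2 genes went both ways in G1, with overlapping intervals. Suz12 was at 127 CPM in WT against 114 CPM in cKO, Aebp2 at 55.1 against 44.8 CPM and Epop at 13.1 against 7.81 CPM. Mtf2 was at 94.0 against 105 CPM. Genotypes were planned to be compared by class and not by phase, and no share of all genes by phase is given here. Over all APs Eed was at 0.20 (0.07 to 0.33) and Mtf2 at 0.11 in APs, with intervals above 0, and Phf19 was at -0.04 (-0.55 to 0.48). Ring1, Pcgf1 and Pcgf2 were at -0.12, 0.12 and 0.01 in APs. Epop was at -0.35 (-0.62 to -0.09), opposite to its direction in the cultures. In IPs none of 29 was past 1.5-fold (beside 1.70% higher and 1.04% lower), and in GE cells none of 30 (beside 1.32% and 0.771%), with Cbx8 nearest at 0.57 (0.20 to 0.94) on 96 and 188 UMIs. Cultures and embryos differ in cell source, assay and number of samples, and the difference between them was not tested.

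Pcgf5 in excitatory neurons was that gene. Of 31 genes counted there it was the 1 lower and none was higher, beside 1.15% and 2.32% of 13270 genes. It had 188 UMIs and 3.74 CPM in WT and 117 UMIs and 2.25 CPM in cKO, at a log2 ratio of -0.73 (-1.08 to -0.39). These levels lie in the range that AP markers keep in neurons. The difference is given as a value of these libraries, and whether it is one of expression in neurons was not tested. Of the AP markers, 13 with at least 100 UMIs in neurons of both embryos together lay between -0.18 and 0.52 there, above Pcgf5. The log2 ratio of Pcgf5 was -0.13 (-0.23 to -0.02) in APs, -0.33 (-0.68 to 0.02) in IPs and 0.33 (-0.06 to 0.73) in GE cells. Pcgf5 did not pass the test in the cultures, at 0.11 (edgeR adjusted p = 0.60).

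**Figure D5:**
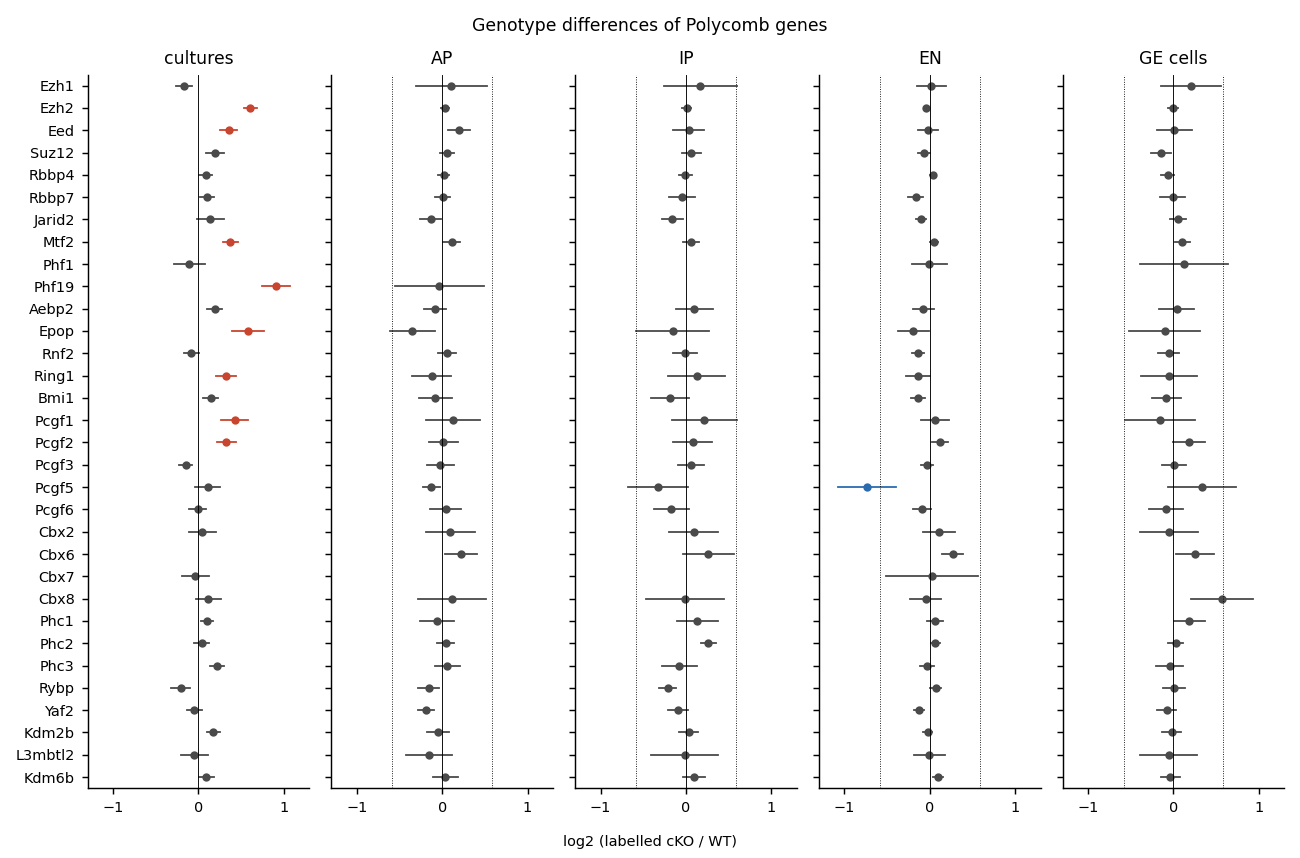
Log2 ratio of cKO to WT for each Polycomb gene in the cultures (bars are standard errors, red marks genes that passed the test) and in apical progenitors, intermediate progenitors, excitatory neurons and GE cells of 1 embryo per genotype (bars are exact 95% intervals for counting error, blue marks a gene past 1.5-fold). Ezh2 lies at 0.61 in the cultures and between -0.04 and 0.03 in the 4 classes.

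Markers of other cells differed between the embryos as well. In APs all 5 counted red blood cell genes, 3 of 16 excitatory neuron genes and 6 of 13 GE genes were past 1.5-fold higher in cKO, while none of 14 AP genes and none of 14 cycling genes was past it. The 7 red blood cell genes summed to 89.4 CPM in WT APs, with 1 of them at 0, and to 289 CPM in cKO APs. In excitatory neurons 5 of 12 GE genes were higher in cKO, and 1 neuron cluster held 170 WT and 535 cKO cells. Without that cluster, Pcgf5 in excitatory neurons was at -0.84. The part of the other differences in the Polycomb values was not tested.

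Some genes of the other pathway lists also differed between APs and neurons. Over all 12779 genes counted, 20.9% were higher in neurons and 27.5% were lower. Of 29 counted partners, 2 were higher in neurons than in APs in both embryos, Asxl3 at 1.96 and 2.01 and Auts2 at 1.35 and 1.19, and 6 were lower, among them Scml2 at -1.80 and -1.47 and Asxl2 at -0.98 and -1.09. Of 15 counted trithorax genes none was higher and 3 were lower, among them Paxip1 at -0.73 and -0.90 and Dpy30 at -0.73 and -0.78. No Hox gene reached 100 UMIs in both embryos. Fezf2, a regulator of deep-layer neurons, was the 1 counted gene of the other Polycomb-silenced genes, higher in neurons at 1.21 and 1.08. Fezf2 is also among the markers by which clusters were named excitatory neurons, so its rise there is not independent of the naming.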

How the data were processed

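RNA-seq of 6 NPC cultures was deposited by the authors as raw counts per gene, after alignment to mm10 with HISAT2. Which program counted the reads, on which annotation and with which strand setting, is not given in the sources used here. scRNA-seq was deposited as UMI counts per gene and cell from Cell Ranger, for 1 embryo per genotype. LACE-seq libraries of the series were not analysed here. The labels do not say whether the cultures came from separate animals, so p-values measure only the spread between these cultures, which may be technical.

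Cultures were compared with edgeR 4.0.16 in R 4.3.3 (filterByExpr, TMM, robust quasi-likelihood test without the replicate number, adjusted p below 0.05 over all genes tested). DESeq2 1.42.0 and limma 3.58.1 were alternatives. Epop was matched by coordinates. Barcodes under 200 genes or over 10% mitochondrial UMIs were dropped and the rest clustered with Seurat 5.3.0 (2000 variable genes less the Polycomb genes, 30 principal components, resolution 0.8). Clusters were named from fixed marker lists, needing 3 raised markers; the other limits on a name were set after the clusters were seen. Scrublet, run in scanpy 1.11.5, marked 284 (3.43%) WT and 447 (4.63%) cKO barcodes as doublets, which were kept in the main analysis. UMIs were summed per class, and a gene was counted with at least 100 UMIs per embryo. Scripts were tested on simulated data.

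The genes and lists were chosen with earlier results of these data known. Values per culture were given for genes that passed the test and for Ezh1, Ezh2, Rnf2, Ring1 and Kdm6b. Values in cells were given for these 5 and for genes past 1.5-fold. From the other lists, the 2 largest called changes in each direction were named.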

Additional observations from a re-analysis of the deposited data

Results flagged for a closer look

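Epop stood at -0.35 (cKO over WT, log2) in APs of the embryos, with an interval below 0, and at 0.58 in the cultures, where it passed the test. The directions were opposite. The difference was not tested, since APs came from 1 embryo per genotype.

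Rybp stood at 0.071 in excitatory neurons, with an interval above 0, and at -0.16 in APs and -0.21 in IPs, with intervals below 0. The intervals cover counting error only, and the difference between the classes was not tested.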

How the results depend on the processing

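No Polycomb gene fell in any fit of the cultures, and Ezh2, Mtf2 and Phf19 passed in every fit. The number of rises, 8, stayed at 8 with RLE or upper quartile normalization, with at least 10 counts in 3 cultures and with limma-voom, 7 without a filter, 6 with DESeq2 and 10 with sex as a covariate. Of all genes, 26.3% passed without a filter, 32.8% with DESeq2 and 39.9% with sex as a covariate, beside 39.5% in the main fit. Leaving out 1 culture gave 4 to 10, with 10 without WT culture 1, 5 without WT culture 2 (Eed, Pcgf1 and Pcgf2 lost), 6 without WT culture 3, 4 without cKO culture 1 (Eed, Ring1, Pcgf1 and Pcgf2 lost), 5 without cKO culture 2 (Epop, Pcgf1 and Pcgf2 lost) and 5 without cKO culture 3 (Ring1, Pcgf1 and Pcgf2 lost). The share of all genes that passed when 1 culture was left out ran from 27.9% (without cKO culture 3) to 43.0% (without WT culture 1). With the replicate number as a block, 11 rose, Suz12, Aebp2 and Phc3 in addition, beside 6405 genes in all in place of 5701. The deviations of same-numbered cultures correlated at 0.264, -0.0466 and 0.116, so the numbers were not taken to pair the cultures. In the cortex 13 genes were past 1.5-fold between APs and neurons, and 8 with APs called G1 alone. Of these 8, Phf1 and Cbx8 had at most 12 UMIs in those APs of either embryo. Under the other alternatives there were 12 to 14 (14 with the limit of 100 UMIs set on the mean of the 2 classes, chosen after seeing the data, as were centring and leaving out clusters). In GE cells there were 5, also 5 with that limit (Pcgf5 in place of Ezh1), and 7 with doublets removed or with values centred on the median of all genes. Between genotypes there was 1, and 3 with the mean over cells (Epop in APs, Pcgf5 in neurons, Cbx8 in GE cells). Except for the limit on the mean of the 2 classes, shares of all genes under these alternatives in cells are not given here. Gains and losses of calls were therefore not read as particular to Polycomb genes. Direction changed in at least 1 embryo for 6 of 369 values of single genes. With APs called G1 alone these were Ezh1 (0.42 in WT, -0.27 in cKO), Ezh2 (0.21, -0.22) and Epop (-0.37, 0.19). In GE cells they were Rnf2 (0.025, 0.06) and Ring1 (-0.14, 0.38) with the mean over cells, and Ring1 (-0.052, 0.13) with centred values. Of the rest, 331 kept direction and side of the threshold and 32 no longer passed it. A difference under 1.5-fold in a gene with about 100 UMIs is within reach of counting error.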
